A study of Arabidopsis thaliana with 12 samples.

Results

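Roots labelled trm4b-1 were set against wild-type roots on medium without paraquat, and the genes whose RNA differed are described here by function and gene family. The members are all 1225 genes that the authors' deposited table lists for this comparison, of 33602 genes tested, which is 3.65% of them. A gene is listed where its adjusted p (Benjamini-Hochberg, from limma) is under 0.1, and it is called changed here where the adjusted p is under 0.05. Genes past the listing limit have no value here and are only counted as not listed.

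The study sequenced total RNA depleted of ribosomal RNA, taken from Arabidopsis thaliana Col-0 roots, harvested 6 days after germination from seedlings on plates. The groups were trm4b-1 on control medium, wild type (WT) on control medium, trm4b-1 on 0.01 uM paraquat and WT on 0.01 uM paraquat, with 3 samples each. The first 2 groups, 6 samples in all, make up the comparison. Paraquat is a herbicide that makes cells form superoxide. The paraquat groups are described only where a difference between media is named. The authors' fit is taken to span all 12 samples, so the paraquat libraries also enter each SE and p-value. The files hold no value per sample and no read counts, so the depth, the level of any gene and the spread of single replicates are unknown. Each value below is therefore a log2 difference, trm4b-1 minus WT unless said otherwise, ± its standard error (SE) as recovered from the deposited p-value, and every difference and adjusted p comes from the authors' deposited table except differences named as rebuilt. The identity of the root tissue could not be checked by level for the same reason.

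TRM4B is an RNA methyltransferase that puts a methyl group on carbon 5 of cytosines in transfer RNAs and messenger RNAs, and trm4b-1 names an allele of its gene whose kind of lesion the labels do not give. Root hairs are tubular outgrowths of single epidermal cells that take up water and ions. They are built by basic helix-loop-helix transcription factors that switch on genes for wall loosening, wall proteins and tip growth. When mitochondria are impaired, plant cells switch on nuclear genes for alternative respiratory enzymes through membrane-bound NAC factors, which bind a short promoter element called the mitochondrial dysfunction motif.

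TRM4B itself (AT2G22400, TAIR10 chr2:9504659-9508875, minus strand, 15 exons) had more RNA in the libraries labelled trm4b-1. The difference was 2.89 ± 0.08 (adjusted p = 5.64e-12, limma), which is 7.43-fold higher than in WT, and 3.90 ± 0.08 on paraquat medium (adjusted p = 6.52e-14). The direction goes against a loss of transcript, and the files do not show where along the gene the reads lie, so the value does not check the genotype. Libraries are therefore called by their label throughout. SLO1 (AT2G22410), a mitochondrial RNA editing factor of the pentatricopeptide family that is transcribed away from TRM4B on the other strand, was higher by 2.24 ± 0.21 (adjusted p = 3.27e-05), and by 2.03 ± 0.18 on paraquat medium. The genomic stretch between the RefSeq starts of both genes is shown because both RNAs were higher, on the plus strand of chr2:9508896-9509015, with the start of SLO1 at its right end.
TRM4B to SLO1: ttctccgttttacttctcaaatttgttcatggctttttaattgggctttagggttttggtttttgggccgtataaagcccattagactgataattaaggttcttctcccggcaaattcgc
TRM4A, the closest relative of TRM4B, had 0.57 ± 0.15 with an adjusted p of 0.0687 and did not pass. The other 4 of the 6 RNA cytosine methyltransferase genes on the list were not listed.

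Of the 33602 genes tested, 683 changed (2.03%), 282 higher (0.839%) and 401 lower (1.19%) in the roots labelled trm4b-1. The median of the higher genes was 0.83 and that of the lower genes was -0.74, with a median SE of 0.156 over the changed genes. The falls were more numerous and mostly small, since 297 of 401 lay under a log2 size of 1, against 168 of 282 rises. At a size of at least 2 the order turned, with 53 rises and 26 falls, and at a size of at least 3 there were 27 rises and 10 falls. Of the changed genes, 659 code for proteins, 12 are pseudogenes, 3 are small nucleolar RNAs, 2 are tRNA genes and 1 is a microRNA gene. At the edge of the call, MED8 had 0.55 ± 0.14 with an adjusted p of 0.0499 and EDA7 had 0.56 ± 0.14 with 0.05005. At the edge of the listing, GASA5 had an adjusted p of 0.0999.

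**Figure D1:**
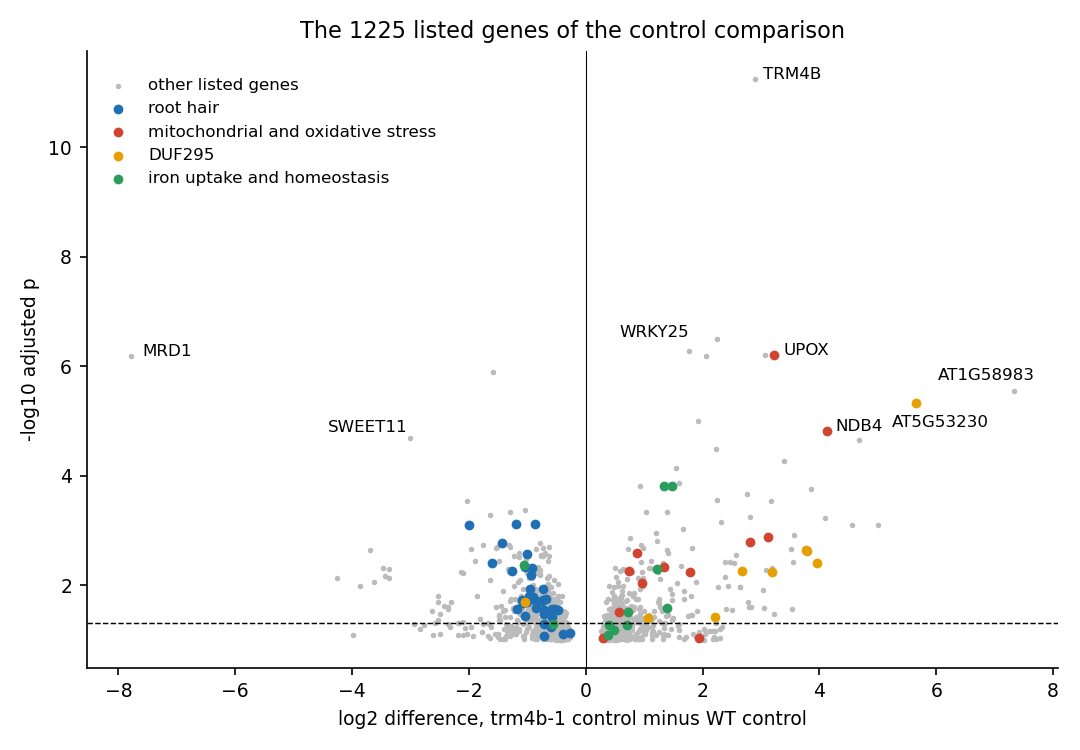
Log2 difference (x axis, trm4b-1 minus WT on control medium) against minus log10 of the adjusted p (y axis) for the 1225 listed genes, with 1 point per gene, members of 4 gene lists in colour and the test's threshold as a dashed line. Rises reach 7.33 (AT1G58983) and falls reach -7.79 (MRD1), and more points lie below 0 (699) than above it (526).

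The largest rises were AT1G58983 (7.33 ± 0.55), annotated as a ribosomal protein S5 family gene, AT5G53230 (5.65 ± 0.44) of the DUF295 family, AT4G05370 (5.01 ± 0.63) and AT4G05380 (4.68 ± 0.42). AT1G58983 has near-identical copies beside it, among which counting could have split or moved reads, so its value is uncertain. AT4G05380 codes for a P-loop nucleoside triphosphate hydrolase. The next rises were the transcription factor gene NAC085 (4.56 ± 0.58), NDB4 (4.13 ± 0.36), the transporter gene ABCA10 (4.09 ± 0.50), AT5G52940 (3.97 ± 0.62), ERF71 (3.85 ± 0.42), AT5G54560 (3.79 ± 0.55), AT5G55270 (3.77 ± 0.55) and NAC103 (3.57 ± 0.47). ERF71 is an ethylene response factor known from low-oxygen responses. By adjusted p, TRM4B led, followed by ACC2 (2.24 ± 0.13, adjusted p = 3.14e-07), the acetyl-CoA carboxylase of plastids, and by WRKY25 (1.78 ± 0.11), GMI1 (3.07 ± 0.20) and UPOX (3.23 ± 0.21).

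The largest fall was that of MRD1 (-7.79 ± 0.52, adjusted p = 6.57e-07, 221-fold lower), a gene first known for lower RNA in a methionine-overaccumulating mutant. Its neighbour HEI10, a meiotic crossover factor, was lower as well (-2.03 ± 0.23, adjusted p = 0.000287). The annotated spans of MRD1 and HEI10 overlap by 1446 bases, and whether strand was used in counting is not given in the sources used here, so reads of one may be counted for the other. Further large falls were AT5G63250 (-4.26 ± 0.73), a carbohydrate-binding X8 domain gene, AT5G15360 (-3.87 ± 0.69), AT5G46295 (-3.69 ± 0.53), AT3G05770 (-3.48 ± 0.56), the calmodulin-binding gene iqd21 (-3.43 ± 0.58), the thioredoxin family gene AT2G30540 (-3.38 ± 0.54) and the receptor kinase gene AT2G19210 (-2.59 ± 0.64, adjusted p = 0.0491). The tRNA gene AT1G80250 (-3.63 ± 0.64) and AT1G24485 (-3.36 ± 0.58) belong to 6 genes whose difference lay below their WT paraquat effect by one and the same offset, 0.272, among 963 genes listed in both tables, where no other offset recurred. Equal offsets of this kind can arise where values sit at a floor, so the sizes for these 6, which also include AT4G37483, AT4G11590, AT1G50350 and AT1G66100, are uncertain. Lowest in adjusted p after MRD1 were AT1G33700 (-1.58 ± 0.11, adjusted p = 1.28e-06), a glucosylceramidase-type beta-glucosidase gene, SWEET11, HEI10 and LAC5.

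Root hair genes were lower in the authors' deposited table, with more members past the test than in any other gene list. Of 47 root hair genes, 35 were listed, all below 0, and 30 passed the test as lower and 0 as higher, against 1.19% lower among all genes tested. The median of the listed members was -0.87, against -0.41 over all 1225 listed genes. The changed members ran from -1.995 ± 0.25 for PRP1, a proline-rich wall protein, to -0.48 ± 0.10 for MRH5, a membrane-anchored phosphodiesterase-like protein needed for hair shape. In bulk roots, fewer root hair cells and less RNA per hair cell cannot be told apart.

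Among the regulators, the helix-loop-helix factors that drive hair elongation were lower: RSL2 had -0.87 ± 0.11 (adjusted p = 0.000759), LRL3 had -1.09 ± 0.22 and RSL4 had -0.74 ± 0.14. None of the 11 genes that decide which epidermal cells become hair cells, such as GL2 and WER, was listed. RHD6, the factor upstream of RSL4, was not listed either.

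Among the wall proteins, PRP3 had -1.43 ± 0.20, LRX1, a leucine-rich repeat extensin of the hair wall, had -1.19 ± 0.15, and the arabinogalactan protein gene AGP3 had -1.05 ± 0.24. Enzymes and proteins that remodel the wall followed the same direction. The xyloglucan endotransglucosylase genes XTH26 (-1.61 ± 0.25), XTH14 (-1.08 ± 0.22) and XTH12 (-1.001 ± 0.20) were lower, as were the expansin genes EXPA18 (-0.94 ± 0.16) and EXPA7 (-0.93 ± 0.15) and the hair peroxidase genes RHS19 (-1.26 ± 0.21), PRX44 (-0.98 ± 0.19) and RHS18 (-0.75 ± 0.15). COBL9, a membrane-anchored protein that organises cellulose deposition in hairs, had -0.87 ± 0.17. Of the genes named root hair specific, RHS14 (-1.04 ± 0.17), RHS12 (-1.005 ± 0.15), RHS15 (-0.95 ± 0.17), RHS17 (-0.89 ± 0.17), RHS13 (-0.85 ± 0.18), RHS10 (-0.72 ± 0.14), RHS2 (-0.71 ± 0.16) and RHS8 (-0.58 ± 0.12) were lower as well.

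Genes of tip growth were lower too. RIC1, an effector of the ROP GTPases that mark the growing tip, had -1.18 ± 0.26, while the ROP activator RHS11 had -0.57 ± 0.13 and SCN1, which restrains ROP to 1 site per cell, had -0.52 ± 0.11. COW1, a phosphatidylinositol transfer protein, had -0.72 ± 0.16, and the actin-severing protein gene ADF11 had -0.68 ± 0.13. RBOHC, the NADPH oxidase of hair tips, was listed at -0.28 ± 0.08 with an adjusted p of 0.0751 and did not pass. In a list of actins, profilins and actin depolymerizing factors put together with the values known, 4 of 26 were lower and 1 higher, among them ACT8 (-0.53 ± 0.13), PRF1 (-0.48 ± 0.12) and ACT2 (-0.47 ± 0.10), while PRF3 was higher by 0.73 ± 0.16. In a like list of ROP regulators, 5 of 29 were lower, including ROPGEF12 (-1.12 ± 0.20) and REN1 (-0.73 ± 0.10), and ROPGEF14 (0.60 ± 0.14) and RIP5 (0.56 ± 0.11) were higher.

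The root hair element, searched as TGNNN followed by GCACG or TCACG on both strands from 250 bases before to 50 after the RefSeq gene start, was in the promoters of 7 of the 30 lower root hair genes (23.3%) and of 7 of all 47 (14.9%). It was in 2.22% of all 27444 promoters of the same length, in 7.91% of those of all lower genes and in 2.62% of those of all higher genes. A match is a description of the letters in this window and not a binding site. Whether members of the list served to define the element was not checked, so its share among them is not read as a result. All 7 carry the shared letters, and stretches from 4 of them are shown as examples, with the element in capitals and 5′ to 3′ on the gene's strand (TAIR10.1). Where the element lies on the other strand it begins with CGTGC and ends with CA.
LRX1: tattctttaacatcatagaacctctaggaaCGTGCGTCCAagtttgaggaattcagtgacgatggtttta
RHS13: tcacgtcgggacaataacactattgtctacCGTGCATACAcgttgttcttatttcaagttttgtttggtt
RHS15: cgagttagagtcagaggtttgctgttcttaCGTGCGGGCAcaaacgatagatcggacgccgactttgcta
RHS18: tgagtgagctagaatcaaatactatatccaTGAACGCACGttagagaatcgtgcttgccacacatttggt
They lie at chr1:4069871-4069940, plus strand for LRX1, chr4:993170-993239, minus strand for RHS13, chr4:12920608-12920677, plus strand for RHS15 and chr5:7426192-7426261, plus strand for RHS18. The element begins 91, 170, 104 and 88 bases before the start in that order, and it is identical in RHS18 and EXPA18. LRX1 has a further match 247 bases before the start, which is not shown.

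**Figure D2:**
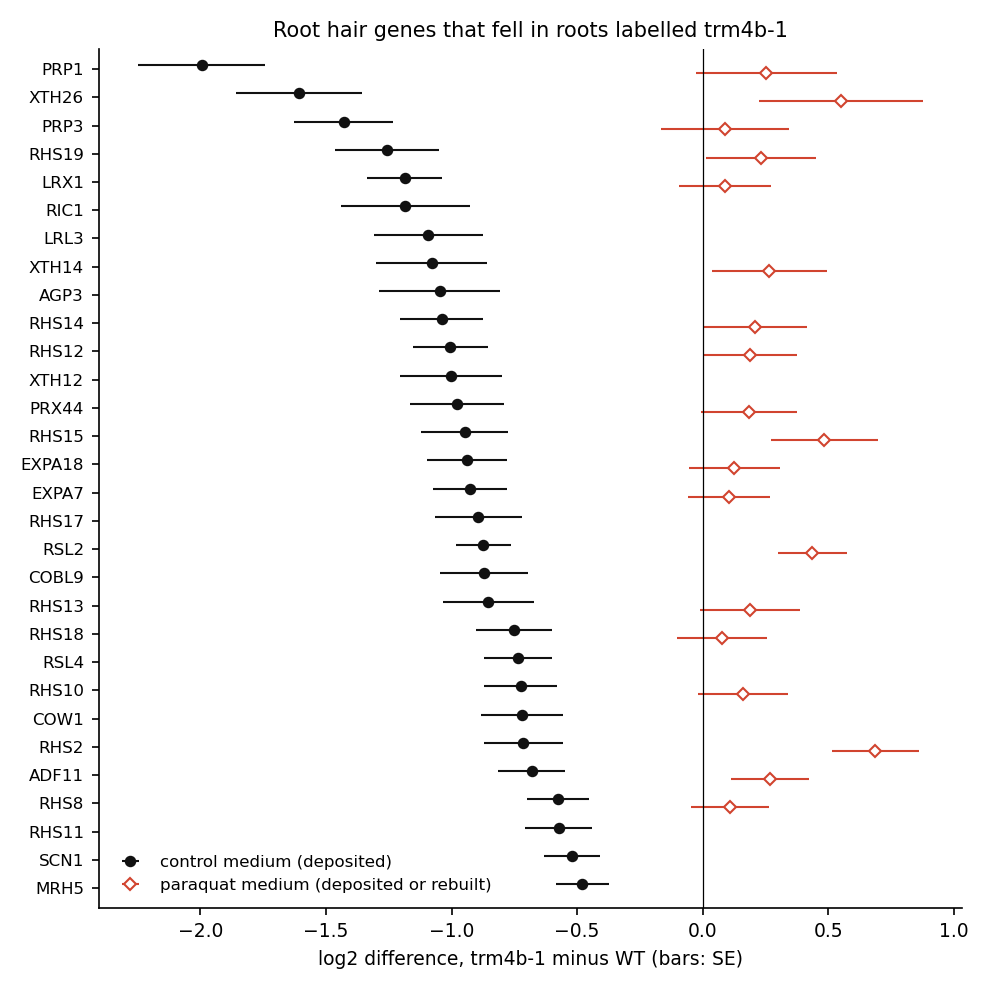
Log2 difference ± SE (x axis, trm4b-1 minus WT) of the 30 root hair genes that were lower, 1 row per gene, with control medium as filled circles and paraquat medium, where a value could be rebuilt, as open diamonds. The circles start at -1.995 for PRP1 and lie below 0 by the choice of genes, and the 19 diamonds lie between 0.08 and 0.69 and exist for genes listed in the interaction (15 of them) or in both paraquat contrasts, a choice that largely sets their side of 0.

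No root hair gene passed in the genotype comparison on paraquat medium, where 0.143% of all genes tested did. For 19 of the 30 lower genes the paraquat-medium difference could be rebuilt from the other deposited contrasts, with values between 0.08 and 0.69. That needs a gene to be listed in the interaction, as 15 of the 19 were, or in both paraquat contrasts, and a gene lower on control medium enters the interaction list mostly by a paraquat-medium value well above its control-medium one. The choice of genes therefore largely sets the sign of these values, and the other 11 have no value. The interaction, which tests whether the genotype difference differs between media, passed for 7 of the 30, against 0.318% of all genes tested. Among all 683 genes changed on control medium, chosen in the same way as the 30, it passed for 11.4%. PRP1 had 0.25 ± 0.28 on paraquat medium (interaction 2.25 ± 0.38, adjusted p = 0.016), XTH26 had 0.55 ± 0.33 (2.16 ± 0.41) and RSL2 had 0.44 ± 0.14 (1.31 ± 0.18, adjusted p = 0.00265). The others were LRX1, RHS12, RHS15 and RHS2. Set beside these, the WT paraquat effect, paraquat minus control, was -1.65 ± 0.25 for PRP1, -1.71 ± 0.16 for LRX1 and -0.83 ± 0.14 for RSL4. That effect, the interaction and the genotype difference on control medium all use the same 3 WT control libraries, so a shift in those libraries and a difference of the roots labelled trm4b-1 cannot be told apart by their likeness.

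Wall protein families beyond the root hair list fell too, although they share members with it. Extensins form the cross-linked protein network of the wall. The list of extensins and proline-rich proteins was chosen by annotation text, so it may also hold proteins that are not part of the wall. Of its 208 genes, 26 were lower and 1 higher. That is 13% changed, against 2.03% of all genes tested, with a listed median of -1.05. The largest falls outside the root hair list were AT5G26080 (-2.36 ± 0.50), PELPK1 (-1.89 ± 0.29), YLS9 (-1.52 ± 0.21), EXT6 (-1.48 ± 0.23), EXT10 (-1.33 ± 0.22), EXT12 (-1.31 ± 0.22), AT4G38080 (-1.31 ± 0.18), AT2G22510 (-1.27 ± 0.25), AT4G08400 (-1.22 ± 0.22) and HRGP1 (-1.21 ± 0.24), and the 1 rise was AT2G16630 (1.68 ± 0.31). Extensins are repetitive and close in sequence, so reads may have been split between them. Of 57 arabinogalactan proteins, heavily glycosylated proteins at the cell surface, 7 were lower and 0 higher (12.3% changed). They were led by FLA6 (-1.299 ± 0.26), AT4G16980 (-1.12 ± 0.25), AGP30 (-0.94 ± 0.22) and FLA13 (-0.81 ± 0.19). FLA8 (-0.72 ± 0.16) and AGP4 (-0.53 ± 0.11) were the other lower ones beside AGP3.

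Pectin methylesterases and their inhibitors, which set how stiff pectin is, had 6 lower and 1 higher of 129 (5.43% changed, against 2.03% of all genes tested). They ranged from AT5G62340 (-1.22 ± 0.18), AT4G25250 (-0.98 ± 0.21), AT5G04960 (-0.87 ± 0.16) and ATPMEPCRD (-0.74 ± 0.18) to AT2G45220 (-0.58 ± 0.12) and AT1G62770 (-0.53 ± 0.11), and PME44 was higher by 1.21 ± 0.20. Class III peroxidases, which cross-link wall polymers with hydrogen peroxide, were mixed, with 4 higher and 9 lower of 71 (18.3% changed). The higher ones were AT4G08780 (1.21 ± 0.16), AT5G06730 (0.996 ± 0.22), AT2G41480 (0.71 ± 0.12) and AT4G33420 (0.50 ± 0.08), and the lower ones outside the hair list included AT1G30870 (-0.96 ± 0.19), AT3G49960 (-0.96 ± 0.19) and PER4 (-0.80 ± 0.16). XTH20 (0.76 ± 0.17) and EXPA1 (0.86 ± 0.17) were higher, against the direction of the hair members of their families.

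Genes of lignin and of the root barriers were lower. Laccases, copper enzymes that polymerise lignin monomers, had 7 lower and 0 higher of 17, and all 10 listed members lay below 0. That is 41.2% lower, against 1.19% of all genes tested. LAC13 had -1.14 ± 0.17, LAC5 had -1.03 ± 0.12 (adjusted p = 0.00042), LAC1 had -1.001 ± 0.18, LAC7 had -0.81 ± 0.16 and LAC3 had -0.81 ± 0.20, and LAC11 (-0.58 ± 0.14) and AT5G01050 (-0.57 ± 0.14) were lower as well. LAC7 and LAC3 were also the only members of the copper homeostasis list that passed, of 27. Dirigent proteins, which guide the coupling of lignin and lignan precursors, had 7 lower and 0 higher of 26 in a list made with the values known. They were AT5G42510 (-1.07 ± 0.21), AT2G39430 (-1.06 ± 0.20), AT4G11210 (-1.02 ± 0.15), AT3G55230 (-0.86 ± 0.16), ESB1, AT3G24020 (-0.63 ± 0.15) and AT2G21100 (-0.61 ± 0.14).

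The Casparian strip is the lignin ring of the endodermis that seals the space between its cells. Of its 12 genes, 7 were listed, all below 0, and 2 passed, the membrane scaffold gene CASP4 (-0.71 ± 0.14, adjusted p = 0.0201) and the dirigent gene ESB1 (-0.68 ± 0.16, adjusted p = 0.0466). The other 5 had values from -0.75 ± 0.20 for CASP1 to -0.28 ± 0.07 for the receptor kinase gene SGN3 and did not pass. Suberin, the lipid polymer laid down in the same cells, had 3 of 16 genes lower: the acyltransferase gene GPAT7 (-0.64 ± 0.12) and the exporter genes ABCG20 (-0.52 ± 0.12) and ABCG6 (-0.51 ± 0.12). Among the markers used to name cell types, 4 of 5 of root hair cells and 2 of 8 of the endodermis were lower. None of those of the root cap, the phloem, the non-hair epidermis or the stem cell niche was listed, and 1 of 6 of the xylem was listed without passing.

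Genes of the mitochondrial and oxidative stress response were higher in the authors' deposited table. Of 30 such genes, 10 were higher and 0 lower, against 0.839% higher among all genes tested, and the listed median was 1.57. The rises were led by the alternative NAD(P)H dehydrogenases of the inner mitochondrial membrane, which pass electrons to ubiquinone without pumping protons. NDB4 had 4.13 ± 0.36 (adjusted p = 1.52e-05, 17.5-fold), NDB3 had 3.13 ± 0.42 (adjusted p = 0.00133) and NDA1 had 1.79 ± 0.30 (adjusted p = 0.0057). AOX1A, the alternative oxidase that takes up those electrons, had 0.30 ± 0.08 with an adjusted p of 0.0941 and did not pass.

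Small mitochondrial proteins known as markers of oxidative stress rose as well, with UPOX at 3.23 ± 0.21 (adjusted p = 6.37e-07, 9.37-fold) and AT12CYS-2 at 2.82 ± 0.39. The mitochondrial heat shock protein gene HSP23.5 had 1.34 ± 0.21, and HSP23.6 had 1.95 ± 0.56 with an adjusted p of 0.0944, which did not pass. NAC013, one of the NAC factors that bind the mitochondrial dysfunction motif, had 0.87 ± 0.13. Smaller rises were those of the glucosyltransferase gene UGT74E2 (0.97 ± 0.17), the glutathione S-transferase gene GSTU25 (0.73 ± 0.12) and the sulfotransferase gene SOT12 (0.58 ± 0.13). The antioxidant enzymes had 2 lower and 0 higher of 37 genes, the peroxidase homologue APX4 (-1.45 ± 0.30) and the catalase gene CAT1 (-0.63 ± 0.13).

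DUF295 genes, a plant family of unknown function with members in tandem pairs on chromosome 5, contained some of the largest rises of the table. Of 69 members 9 were listed and all of these passed, 8 higher and 1 lower (13% changed, against 2.03% of all genes tested). Beside the 4 named above, AT5G53240 had 3.19 ± 0.53, AT5G54550 had 2.67 ± 0.44, AT5G52930 had 2.21 ± 0.51 and AT5G03390 had 1.06 ± 0.25. The lower one was AT2G17036 (-1.04 ± 0.21). In 3 neighbouring pairs both genes rose, AT5G52930 with AT5G52940, AT5G53230 with AT5G53240 and AT5G54550 with AT5G54560, and reads may have been shared within a pair.

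The mitochondrial dysfunction motif, searched as CTTG, 5 free bases and CAAG or CACG on both strands of the same windows, was in the promoters of 7 of the 10 higher stress genes (70%) and of 13 of all 30 (43.3%). It was in 5 of the 9 changed DUF295 genes (55.6%) and in 13 of all 69 (18.8%), against 1.42% of all promoters. Of the promoters of all higher genes 8.99% held it, and 1.53% of those of all lower genes. Whether stress genes of the list served to define the motif was not checked, so its share among them is not read as a result. The stretches below, in TAIR10.1 and 5′ to 3′ on the gene's strand, show the motif in capitals for 4 stress genes and the 5 DUF295 genes.
UPOX: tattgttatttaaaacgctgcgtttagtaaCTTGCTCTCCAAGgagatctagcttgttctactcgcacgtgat
NDA1: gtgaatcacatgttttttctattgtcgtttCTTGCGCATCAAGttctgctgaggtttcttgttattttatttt
NDB3: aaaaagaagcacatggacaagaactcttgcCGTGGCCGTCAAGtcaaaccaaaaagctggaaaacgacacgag
HSP23.5: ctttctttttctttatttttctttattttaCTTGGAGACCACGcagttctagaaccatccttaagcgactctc
AT5G52930: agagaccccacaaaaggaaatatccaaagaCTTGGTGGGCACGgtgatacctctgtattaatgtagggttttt
AT5G53230: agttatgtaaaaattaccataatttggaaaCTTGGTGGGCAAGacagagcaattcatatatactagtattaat
AT5G53240: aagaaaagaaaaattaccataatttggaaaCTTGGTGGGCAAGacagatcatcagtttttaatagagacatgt
AT5G54550: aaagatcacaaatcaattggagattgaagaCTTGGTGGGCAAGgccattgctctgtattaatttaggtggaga
AT5G55270: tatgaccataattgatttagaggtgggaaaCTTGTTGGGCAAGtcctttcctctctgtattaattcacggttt
The stress gene stretches lie at chr2:9254297-9254369, plus strand for UPOX, chr1:2204004-2204076, plus strand for NDA1, chr4:11439590-11439662, minus strand for NDB3 and chr5:20891023-20891095, plus strand for HSP23.5, and their motifs begin 51, 70, 126 and 110 bases before the start in that order. The DUF295 stretches, all on the plus strand, lie at chr5:21470213-21470285, chr5:21598696-21598768, chr5:21601389-21601461, chr5:22158276-22158348 and chr5:22419069-22419141, and their motifs begin 56, 122, 62, 58 and 48 bases before the start, in the order shown. The middle of the motif, which the search leaves free, differed among the 4 stress genes, while 3 of the 5 DUF295 genes had CTTGGTGGGCAAG, AT5G52930 had CTTGGTGGGCACG and AT5G55270 had CTTGTTGGGCAAG. The other 12 higher genes with the motif ran from AT3G58150 (3.54 ± 0.55), the efflux transporter gene AT2G04050 (3.51 ± 0.50) and the helicase-like gene AT1G20750 (3.04 ± 0.56) to the nucleolin gene NUC-L2 and the sucrose synthase gene SUS1 (0.36 ± 0.09). Between them lay NAC044, AT4G12735 (2.27 ± 0.41), AT2G18193 (2.07 ± 0.14), SRO3 (1.32 ± 0.21), AT2G38823 (1.14 ± 0.27), the porin gene AT1G50400 (1.03 ± 0.25) and AT4G08555 (0.92 ± 0.21). The 6 lower genes that held it were LAC5, CYP710A1 (-0.93 ± 0.15), AT5G65660 (-0.99 ± 0.21), RHS6 (-0.74 ± 0.14), AT5G24880 (-0.73 ± 0.15) and AT3G61300 (-0.54 ± 0.12).

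**Figure D3:**
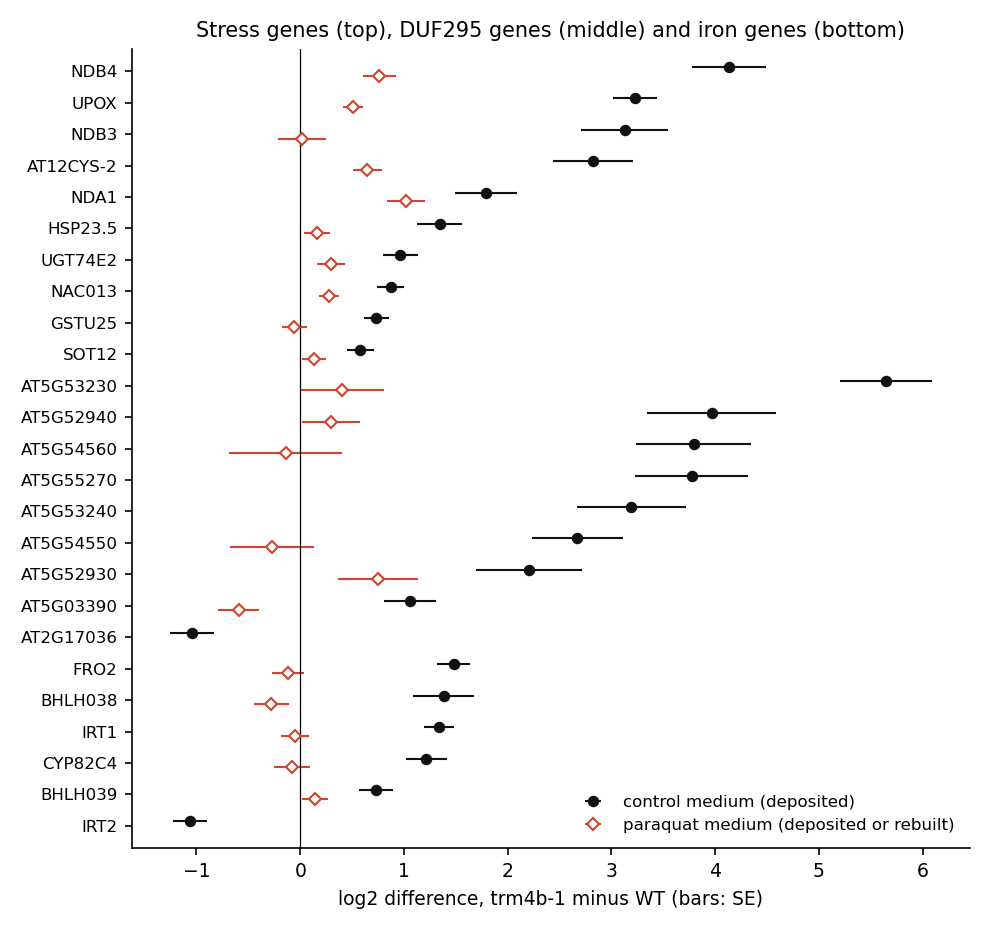
Log2 difference ± SE (x axis, trm4b-1 minus WT) of the changed genes of the mitochondrial and oxidative stress (top), DUF295 (middle) and iron lists (bottom), 1 row per gene, with control medium as filled circles and paraquat medium, deposited or rebuilt, as open diamonds. The circles reach 5.65 for AT5G53230 and 4.13 for NDB4, and IRT2 and AT2G17036 have circles below 0. Diamonds are drawn only where a value was deposited or could be rebuilt, which mostly needs a difference between media.

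On paraquat medium, UPOX (0.51 ± 0.09, adjusted p = 0.0474) and NDA1 (1.02 ± 0.18, adjusted p = 0.034) passed in the genotype comparison as well. The interaction passed for UPOX (-2.72 ± 0.23, adjusted p = 4.04e-05), NDB4 (-3.37 ± 0.39), NDB3 (-3.11 ± 0.48) and AT12CYS-2 (-2.17 ± 0.41), and the rebuilt paraquat-medium differences of the last 3 were 0.76 ± 0.16, 0.02 ± 0.23 and 0.65 ± 0.14. Among the DUF295 genes it passed for AT5G53230 (-5.24 ± 0.60), AT5G52940 (-3.67 ± 0.68), AT5G54560 (-3.93 ± 0.78) and AT5G03390 (-1.65 ± 0.32). The WT paraquat effect was 4.65 ± 0.20 for UPOX, 4.33 ± 0.36 for NDB4 and 3.62 ± 0.50 for AT5G53230, against the same WT control libraries as the genotype difference.

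Genes of the DNA damage response were higher, in a list put together with the values known: 5 of 22 were higher and 0 lower. GMI1, a structural-maintenance protein gene induced by gamma irradiation, had 3.07 ± 0.20 (adjusted p = 6.37e-07). NAC085 (4.56 ± 0.58) and NAC044 (2.54 ± 0.40), factors that act below the damage regulator SOG1 to hold the cell cycle, rose with the checkpoint gene RAD17 (0.98 ± 0.18) and the mismatch repair gene PMS1 (0.52 ± 0.13). SMR7, an inhibitor of cyclin-dependent kinases, had 0.92 ± 0.24 with an adjusted p of 0.0664, and XRI1 had 0.47 ± 0.12 with 0.055. Of the 39 cell cycle and replication genes 1 changed, the cyclin gene CYCD3;3 (0.69 ± 0.17). That is 2.56%, close to the 2.03% of all genes tested. The interaction passed for GMI1 (-2.59 ± 0.24) and NAC085 (-4.20 ± 0.79).

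Transcription factor families differed in their share of changed genes, which was 2.03% over all genes tested. Of 105 NAC factors 4.76% changed: 4 were higher, the 3 named above and NAC103 (3.57 ± 0.47), and RD26 was lower. Of 72 WRKY factors 9.72% changed: WRKY25 (1.78 ± 0.11), WRKY51 (1.12 ± 0.27) and WRKY48 (0.99 ± 0.14) were higher, and WRKY45 (-0.72 ± 0.17), WRKY70 (-0.72 ± 0.16), WRKY31 (-0.42 ± 0.10) and WRKY14 (-0.35 ± 0.09) lower. The ERF/AP2 list, chosen by annotation text, also holds B3 genes and had ERF71, NGA2 (3.18 ± 0.51) and AT5G25475 (0.70 ± 0.16) higher of 152 (1.97%). The MYB family, with 180 members, had MYB30 (0.54 ± 0.13) higher and no other call (0.556%). Of the 69 bZIP factors (2.9% changed) FD (-0.66 ± 0.16) and AT2G40620 (-0.59 ± 0.14) were lower.

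Iron uptake genes were higher in the authors' deposited table. Of 41 iron genes, 5 were higher and 1 lower (14.6% changed, against 2.03% of all genes tested). FRO2, the reductase that frees ferrous iron at the root surface, had 1.48 ± 0.16 (adjusted p = 0.000156), and IRT1, which takes it up, had 1.34 ± 0.14 (adjusted p = 0.000156). The helix-loop-helix factor genes BHLH038 (1.38 ± 0.29) and BHLH039 (0.73 ± 0.16), neighbours whose products pair with the iron regulator FIT, were higher, and so was CYP82C4 (1.21 ± 0.20), which makes iron-mobilising coumarins. IRT2, the neighbour of IRT1 and a transporter of internal vesicles, was lower (-1.06 ± 0.17, adjusted p = 0.00437). The 8 iron storage genes were not listed. The rebuilt differences on paraquat medium were -0.12 ± 0.15 for FRO2 and -0.05 ± 0.14 for IRT1, with an interaction of -1.60 ± 0.22 (adjusted p = 0.00319) and -1.39 ± 0.20 (adjusted p = 0.00486).

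Among the other nutrient lists, the zinc transporter genes ZIP9 (-0.90 ± 0.20) and ZIP3 (-0.60 ± 0.14) were lower, 2 of 11 genes, where 2.03% of all genes tested changed. Of the phosphate list, with 32 genes (6.25% changed), PHO1;H1 (0.62 ± 0.14), a phosphate exporter, and AT4 (0.85 ± 0.20), a phosphate-starvation RNA, were higher. Of the 22 genes of the sulfate list (9.09% changed) SULTR4;2 (0.52 ± 0.12), which empties vacuolar sulfate, and SHM7 (0.35 ± 0.08) were higher. Of the 29 nitrogen genes 1 changed (3.45%), and the nitrate reductase gene NIA1 (0.63 ± 0.11) was higher.

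A few genes of sugar transport and photosynthesis were lower. The sucrose exporters SWEET11 (-3.01 ± 0.27, adjusted p = 2.05e-05, 8.06-fold lower) and SWEET12 (-1.76 ± 0.24), which load the phloem in leaves, were the 2 calls among 36 sugar transporters. Their rebuilt differences on paraquat medium were 0.51 ± 0.37 and 0.91 ± 0.37. Of 33 nuclear photosynthesis genes the rubisco small subunit gene RBCS1A (-1.87 ± 0.36) and GAPA (-0.60 ± 0.15) were lower and none was higher, and outside the list PRK, an enzyme of the Calvin cycle, had -2.36 ± 0.51. Of the 10 shoot markers 2 were listed, both below 0, and 1 passed, and the part of shoot tissue in these values was not tested. Among amino acid exporters of the UMAMIT family 4 of 49 were lower (8.16%, against 1.19% of all genes tested). They were UMAMIT14 (-1.12 ± 0.24), UMAMIT17 (-0.65 ± 0.10), UMAMIT13 (-0.60 ± 0.14) and UMAMIT10 (-0.59 ± 0.14).

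Genes of the outer epidermis and its cuticle were higher, in a list made with the values known: 5 of 21 were higher and 0 lower. The epidermal identity factor genes ATML1 (1.23 ± 0.25) and PDF2 (1.02 ± 0.25) rose with ABCG11 (1.17 ± 0.19), an exporter of cuticle lipids, KCS16 (2.46 ± 0.38), which elongates fatty acids, and HTH (0.90 ± 0.16), a gene that keeps floral organs from fusing. GDSL lipases, some of which build cutin, had 5 higher and 0 lower of 101 (4.95% changed, against 2.03% of all genes tested). They ran from AT1G29660 (1.81 ± 0.41) and AT4G16220 (1.67 ± 0.33) to AT3G16370 (1.22 ± 0.17), AT1G75900 (1.06 ± 0.25) and AT5G45670 (0.82 ± 0.20). The 133 lipid transfer proteins (6.77% changed) were divided, with 4 higher, led by LTP5 (1.82 ± 0.26) and AT5G01870 (1.67 ± 0.22), and 5 lower, led by AT1G62510 (-1.64 ± 0.29).

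Among the hormone lists, 3 of 30 abscisic acid genes were lower (10%, against 1.19% lower among all genes tested), the phosphatase gene HAI1 (-1.15 ± 0.28), RD26 (-0.64 ± 0.13) and the dehydrin gene COR47 (-0.57 ± 0.12). Of 31 auxin response genes 6.45% changed, against 2.03% of all genes tested: TAR2 (0.73 ± 0.16), which makes auxin, was higher and GH3.2 (-0.51 ± 0.11), which conjugates it, lower. The influx carrier gene LAX1 (-0.64 ± 0.14), of the auxin transport list, was lower. Of 21 cytokinin genes 1 changed (4.76%), the cytokinin oxidase gene CKX4 (-0.91 ± 0.18). No gene of the ethylene, gibberellin, circadian clock or root cap lists was listed. Of the glucosinolate genes CYP79B3 (-0.48 ± 0.12) was lower, and no jasmonate gene passed.

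Among enzyme and transporter families, berberine bridge enzymes had 4 of 27 lower, led by AT1G26420 (-0.92 ± 0.21), and acyltransferases of the HXXXD type, a list made with the values known, had 4 of 58 lower, led by AT3G29635 (-1.68 ± 0.41). Cytochromes P450 had 4 higher and 4 lower of 248 (3.23% changed). Genes annotated by text as glutathione S-transferases had 3 higher and 2 lower of 56 (8.93%), where GSTF14 (2.38 ± 0.41) was highest. GSTL1 (0.89 ± 0.21), annotated as a glutathione transferase, lies outside that list and was higher too. Receptor-like kinases had 5 lower and 0 higher of 362 (1.38%, where 1.19% of all genes tested were lower and 2.03% changed). CAP secretory proteins, U-box protein kinases and subtilases, lists also made with the values known, had 4, 4 and 3 lower and 1, 0 and 1 higher of 19, 9 and 36 in that order. Of the aquaporins 4 were listed, all below 0, and none passed.

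Genes for making ribosomes gave small differences. The ribosomal protein list had 5 higher and 0 lower of 376 (1.33%, where 0.839% of all genes tested were higher and 2.03% changed). Apart from AT1G58983 the rises ran from AT1G56045 (0.37 ± 0.09) to AT5G39850 (0.72 ± 0.10). Subunits of RNA polymerases I and III, which transcribe ribosomal and transfer RNA, had NRPC1 (0.57 ± 0.12), NRPC2 (0.53 ± 0.12) and NRPA2 (0.38 ± 0.09) higher of 11 in a list made with the values known. WD-40 and Brix proteins, many of them nucleolar and also listed with the values known, had 7 higher, including IMP4 (0.44 ± 0.11) and TOZ (0.33 ± 0.08), and 2 lower of 173, and NUC-L2, a nucleolin, had 0.61 ± 0.14. Of 672 tRNA genes 2 were lower (0.298%), AT1G80250 for tryptophan and AT4G02055 for histidine (-2.64 ± 0.58), the first of them at the suspected floor. Of 326 microRNA genes 1 changed (0.307%), MIR163 (-0.39 ± 0.09, adjusted p = 0.0333), whose mature sequence is shown with its seed, bases 2 to 8, in capitals.
miR163: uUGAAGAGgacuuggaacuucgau
Of the mitochondrial genome 3 genes passed, ATMG00220 (1.81 ± 0.41) higher and ATMG00030 (-2.10 ± 0.35) and ATMG01390 (-1.81 ± 0.43) lower, and no plastid gene was listed.

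**Figure D4:**
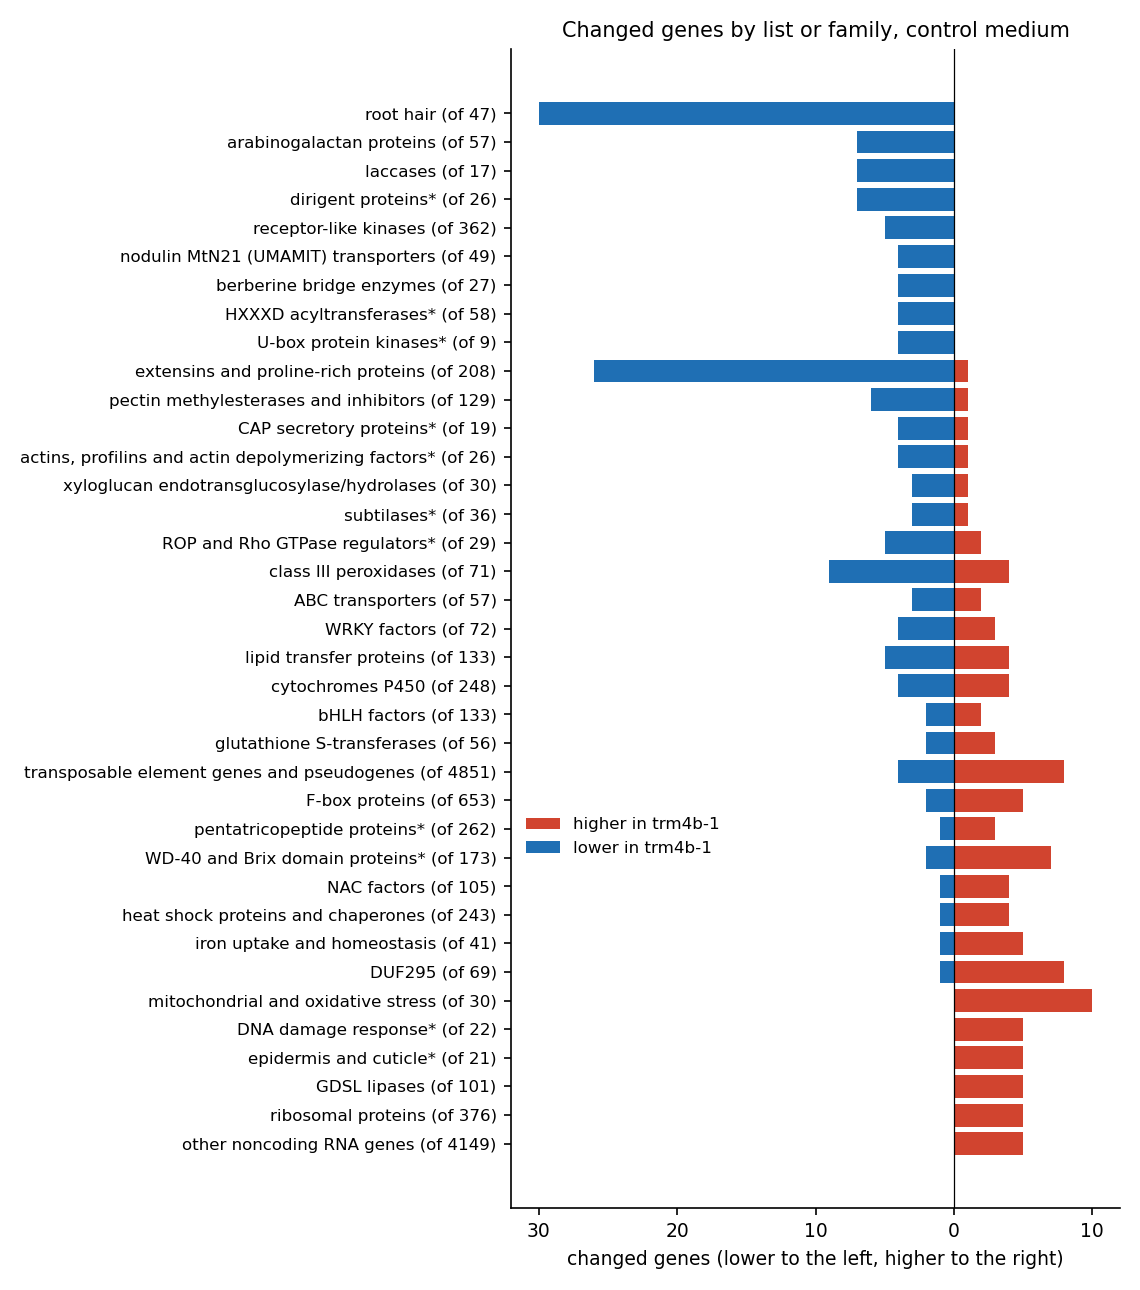
Number of changed genes (x axis) in each gene list with at least 4 of them (rows, with the size of the list in brackets), trm4b-1 against WT on control medium, where bars to the right of 0 count higher genes and bars to the left lower ones, and an asterisk marks lists made with the values known. Root hair genes (30 lower) and the list of extensins and proline-rich proteins (26 lower) reach farthest left, and the stress genes (10 higher) farthest right.

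The genotype comparison on paraquat medium uses other libraries on both sides. Both genotype comparisons are taken to come from the same fit, with a shared variance estimate for each gene. Passing on both media is therefore not fully independent. In the authors' deposited table the comparison on paraquat medium had 48 changed genes. Of these, 17 changed on control medium too, which is 2.49% of the 683 and 35.4% of the 48. Of the 17, 10 were higher on both media and 6 lower on both. Besides TRM4B and SLO1, WRKY25 had 1.78 ± 0.11 on control medium and 1.59 ± 0.11 on paraquat medium, UBC12, a ubiquitin-conjugating enzyme, had 2.75 ± 0.30 and 2.24 ± 0.29, AT3G54530 had 2.25 ± 0.25 and 0.79 ± 0.10, AT2G02970 had 1.03 ± 0.12 and 0.78 ± 0.12, AT3G45730 had 0.95 ± 0.13 and 0.70 ± 0.12, and TRI, a tropinone reductase-like enzyme, had 0.51 ± 0.11 and 0.74 ± 0.11. UPOX and NDA1 are given above.

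Of the genes lower on both media, MRD1 had -6.54 ± 0.46 on paraquat medium, HEI10 had -1.74 ± 0.23, AT5G46295 had -4.26 ± 0.52 and AT1G33700 had -0.92 ± 0.12. PAO4, a polyamine oxidase, had -0.63 ± 0.09 on control medium and -0.57 ± 0.09 on paraquat medium, and UBC11, the neighbour of UBC12, had -0.54 ± 0.11 and -0.65 ± 0.11. UMAMIT17 alone changed its sign, with -0.65 ± 0.10 on control medium and 1.39 ± 0.16 on paraquat medium (interaction 2.04 ± 0.19, adjusted p = 0.000102).

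**Figure D5:**
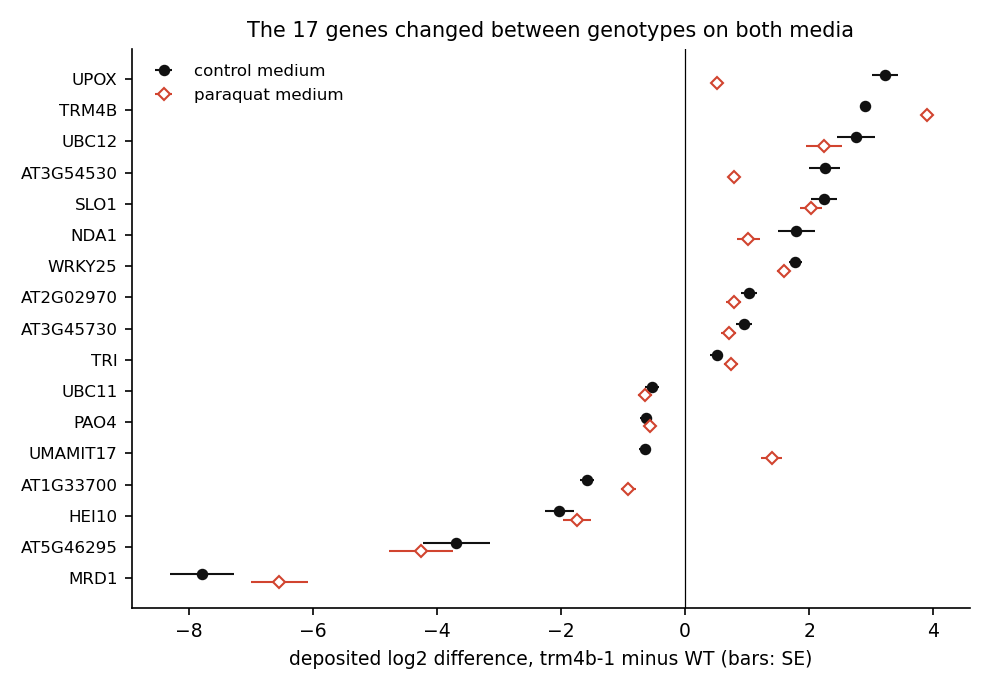
Log2 difference ± SE (x axis, trm4b-1 minus WT, as deposited) of the 17 genes that changed on both media, 1 row per gene, with control medium as filled circles and paraquat medium as open diamonds. Circle and diamond lie on the same side of 0 in 16 genes, and UMAMIT17 has them on opposite sides.

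In the authors' deposited table the interaction passed for 107 genes of all tested (0.318%), and 78 of the 683 changed genes were among them (11.4%), 43 higher and 35 lower on control medium. For 77 of the 78 the interaction had the opposite sign to the difference on control medium, and TRM4B was the exception. Both values use the control libraries, so the opposite sign is no independent observation. By adjusted p the leading ones besides those named were ACC2 (interaction -2.23 ± 0.17, rebuilt paraquat-medium difference 0.01 ± 0.11), AT2G18193 (-1.74 ± 0.18, 0.32 ± 0.11) and EMB1030, an alanyl-tRNA synthetase (-2.02 ± 0.21, -0.10 ± 0.14).

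Changed genes lay next to each other in 25 pairs on the chromosomes, which hold 50 of the 683 genes (7.32%), and no run of 3 was found. No share expected without any link between neighbours was computed. AT4G05370 is missing from the annotation, so it could not be paired with AT4G05380. MRD1 and HEI10 are neighbours only when protein-coding genes alone are counted. In 20 of the 25 pairs both genes moved the same way, 11 higher and 9 lower, and in 5 they moved apart. Of the 25 pairs, 7 have the same annotated product, such as the 3 DUF295 pairs above. Pairs that moved apart included IRT2 with IRT1, UBC11 with UBC12 and GSTU26 (-0.49 ± 0.10) with GSTU25. Neighbours with unlike products that rose together included TRM4B with SLO1 and ABCG39 (1.56 ± 0.28), a pleiotropic drug resistance transporter, with LUP5 (2.802 ± 0.59), a triterpene cyclase. In all, 79 changed genes have a tandem copy beside them, so reads of close copies may have been exchanged.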

How the data were processed

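Ribosomal RNA was removed from total root RNA before library preparation, per the labels' protocols. Per the submitters' processing notes, Trimmomatic, TopHat and limma were used with the build TAIR10. Counting, normalization, filters and the use of strand are not stated in the material at hand. From the authors come 5 deposited tables of contrasts. Per the file headers these give a log fold change for each listed gene (read as log2, limma's convention, as no base is named), with a raw p-value, an adjusted one and a Storey q-value. The submitters call the replicates biological, and whether they came from separate plates is not stated, so p-values measure the spread between these samples.

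The adjusted p-values imply that 33602 genes were tested. The deposited interaction equals the difference between its component contrasts, and its variance fixes the total degrees of freedom at 15.3 (96 genes), from which each standard error follows as log2 difference over t. The recovery was checked on simulated data. Differences on paraquat medium were rebuilt for 327 of the 683 changed genes, which are those listed in the interaction or in both paraquat contrasts, and equalled the deposited value in the 16 genes with both.

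The members and the 83 gene lists were chosen with earlier results of these data known, and 12 of the lists were added with the values of this comparison in view. Lists are described by counts, without a test. The named genes are TRM4B, SLO1, for each direction the 12 largest changes and the 5 lowest adjusted p-values, and of each list its changed members or, past 12, the 12 farthest from 0. Of long lists only the leading ones are printed. EDA7, MED8, GASA5, PRK, NUC-L2, SRO3, AT3G58150, AT2G04050, AT2G18193, EMB1030, members that did not pass and the genes of both media or of pairs were named beyond it, after their values were seen.

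Names came from TAIR10.1, which matched 1220 of the 1225 genes. Coordinates of genes are those the authors deposited, and 98% of 5389 introns between their exons read GT to AG in TAIR10.1. Only 110 of the 1220 matched genes had both ends at the same base as in RefSeq. Motif shares and distances therefore hold for the RefSeq starts and could differ with the deposited ones. Promoter windows and miR163 use RefSeq on TAIR10.1. Alternatives were other thresholds, a size limit, Holm adjustment, a Storey q, genes left out, rebuilt values and other degrees of freedom. Tools were pandas 2.3.3, numpy 2.4.6 and scipy 1.17.1 in Python 3.11.15, matplotlib 3.10.9 for figures, and R 4.3.3 with limma 3.58.1 for the simulation.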

Additional observations from a re-analysis of the deposited data

Results flagged for a closer look

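The genes here are singled out because their genotype differences differed between the 2 media by the deposited interaction test (limma, adjusted p under 0.05), a difference between groups. Values are the interaction, the difference on paraquat medium minus that on control medium, on the log2 scale ± SE. All of them use the control libraries that also give the control difference.

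TRM4B, higher in the libraries labelled trm4b-1 on control medium, was farther above 0 on paraquat medium (1.01 ± 0.11, adjusted p = 0.000456). UMAMIT17 had 2.04 ± 0.19 and changed its sign.

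Among genes higher on control medium, the stress genes had values of -3.37 ± 0.39 (NDB4), -3.11 ± 0.48 (NDB3), -2.72 ± 0.23 (UPOX) and -2.17 ± 0.41 (AT12CYS-2). The DUF295 genes had -5.24 ± 0.60 (AT5G53230), -3.93 ± 0.78 (AT5G54560), -3.67 ± 0.68 (AT5G52940) and -1.65 ± 0.32 (AT5G03390). Transcription factor and DNA damage genes had -4.20 ± 0.79 (NAC085), -3.66 ± 0.57 (NAC103), -3.62 ± 0.45 (ERF71), -0.94 ± 0.19 (WRKY48) and -2.59 ± 0.24 (GMI1). Iron and sulfur genes had -1.60 ± 0.22 (FRO2), -1.39 ± 0.20 (IRT1), -1.29 ± 0.26 (CYP82C4) and -0.63 ± 0.11 (SHM7). Lipid and cuticle genes had -2.48 ± 0.46 (KCS16), -2.23 ± 0.17 (ACC2), -1.29 ± 0.25 (ABCG11), -1.48 ± 0.28 (AT5G01870) and -1.27 ± 0.22 (AT3G16370). The remaining higher genes had -7.22 ± 0.94 (AT1G58983), -4.98 ± 0.55 (AT4G05380), -4.71 ± 0.85 (AT4G05370), -3.20 ± 0.60 (AT3G58150), -3.12 ± 0.52 (AT2G04050), -2.02 ± 0.21 (EMB1030), -1.95 ± 0.30 (AT4G21870), -1.74 ± 0.18 (AT2G18193) and -1.46 ± 0.27 (AT3G54530).

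Among genes lower on control medium, the root hair genes had 2.25 ± 0.38 (PRP1), 2.16 ± 0.41 (XTH26), 1.43 ± 0.27 (RHS15), 1.401 ± 0.23 (RHS2), 1.31 ± 0.18 (RSL2), 1.27 ± 0.24 (LRX1) and 1.19 ± 0.24 (RHS12). Other wall and tip growth genes had 1.24 ± 0.23 (AT4G11210), 1.08 ± 0.18 (AT2G45220) and 0.93 ± 0.16 (REN1). Transport and photosynthesis genes had 4.37 ± 0.81 (PRK), 3.52 ± 0.45 (SWEET11), 2.66 ± 0.44 (SWEET12) and 1.76 ± 0.32 (ZIP9). The others had 4.94 ± 0.81 (AT2G30540), 4.56 ± 0.86 (AT1G24485) and 4.16 ± 0.70 (AT4G37483), and the last 2 are among the genes with the recurring offset.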

How the results depend on the processing

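The 683 changed genes became 161 (86 higher, 75 lower) at an adjusted p under 0.01, 1225 (526 higher, 699 lower) at the listing limit, 218 (114 higher, 104 lower) with a log2 size of at least 1 and 41 (31 higher, 10 lower) with Holm adjustment. Under a Storey q under 0.05 there were 899 (373 higher, 526 lower), so lower genes outnumber higher ones at the looser limits and not at the stricter ones. Over all lists the 247 changed members became 79, 400, 99 and 19 under the same first 4 settings in that order. Genes that passed in the interaction as well went to 193, against 78, and those changed on both media to 26, against 17, at an adjusted p under 0.1. Leaving out organelle genes (680), tandem copies (604) or, added after seeing the data, the 6 genes with the recurring offset (677) left the count within 1.5 times. Neighbours counted among protein-coding genes alone, also added later, gave 56 genes in 28 pairs, against 50. Root hair genes gave 30 lower calls, 10 at an adjusted p under 0.01 and 3 with Holm adjustment. Of 568 list counts under these settings, 354 stayed within 1.5 times. Rebuilding the control difference from other contrasts was possible 11 times for 8 named genes, and each result lay within 1 SE of the deposited one. The contrasts are tied by arithmetic, so this checks the reading of the values and not their robustness. Standard errors would be smaller, with a median of 0.114 against 0.156, at 8 degrees of freedom.

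Replicates could not be left out in turn, since no values per sample are in the tables. No paired analysis was possible because the tables hold no value per replicate. Depth is unknown, so low expression could not be told apart from a small number of reads, and the fold sizes of low genes are the least certain.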

Other observations

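Families not described above are given here beside the share of changed genes over all genes tested, 2.03%, with values from the authors' deposited table. Of 243 heat shock proteins and chaperones, 4 were higher and 1 lower (2.06%, close to the share of all genes). The higher ones, beside HSP23.5, were AT4G21870 (0.99 ± 0.17), a small heat shock protein gene, ATJ1 (0.58 ± 0.14) and MGE1 (0.42 ± 0.10), co-chaperones of mitochondrial import, and the lower one was ERDJ3A (-0.90 ± 0.20), a co-chaperone of the endoplasmic reticulum. Pentatricopeptide proteins bind organelle RNA, and 262 of their genes were taken by annotation text, with the values known. Of these, 3 were higher, AT1G63070 (2.63 ± 0.48), AT2G20720 (1.36 ± 0.33) and AT1G03100 (0.73 ± 0.17), and AT5G04810 (-0.47 ± 0.10) was lower (1.53% changed). SLO1, which was higher too, is not in this count because its annotation text does not name the family.

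Of 653 F-box genes, 5 were higher, led by AT1G32430 (3.18 ± 0.51) and AT2G24255 (2.79 ± 0.57), and 2 lower (1.07%, below the share of all genes). Of 152 immune receptor genes of the NLR class, AT5G46260 (0.78 ± 0.16) and AT5G38340 (0.53 ± 0.12) were higher and LOV1 (-1.18 ± 0.28) lower (1.97%, close to the share of all genes). Transposable element genes and pseudogenes had 0.247% changed, below that share, with 8 higher and 4 lower of 4851, from AT3G25225 (3.22 ± 0.73) to AT3G48650 (-2.16 ± 0.53). No explanation was tested for any of these values.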
